A study of Mus musculus with 19 samples.

Results

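Lung RNA of 4 MutaMouse males dosed with benzo(a)pyrene (BaP) at 50 mg/kg/day was compared with lung RNA of 5 males given vehicle alone. The arrays were chosen by their titles, which mark the middle dose and the controls, and these 9 are part of 19 arrays that also cover 25 and 75 mg/kg/day (5 mice each). The MutaMouse is labelled as transgenic strain 40.6 and carries a reporter used to score mutations. All animals of both groups carried the transgene, were males 25 weeks old and were gavaged daily for 28 days, and a piece of lung was collected 3 days after the final dose. Groups of 5 were planned by the design text; the dosed mice used here are 4 (mice 12, 13, 14 and 15). The controls were mice 1 to 5. On each array the lung RNA carried the red dye Cy5 and a pooled RNA of 11 mouse cell lines carried the green dye Cy3, with no dye swap. Every value below is a log2 ratio of lung over that reference RNA, or a difference between 2 such ratios, so 1 unit is a 2-fold change. Nothing in the labels says that an array repeats an animal, and the spread measured is that between mice.

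BaP is a polycyclic aromatic hydrocarbon formed when organic matter burns. In the classical scheme it binds the aryl hydrocarbon receptor, which switches on cytochrome P450 enzymes such as Cyp1a1. These, together with microsomal epoxide hydrolase, turn BaP into a diol epoxide that forms bulky adducts on DNA. Damaged DNA activates p53, a transcription factor held down by the ubiquitin ligase Mdm2, and active p53 switches on genes for cell cycle arrest, for programmed cell death, for its own restraint and for secreted signals. Its binding sites are built from copies of a short half-site of 10 bases with CATG or a close relative at the centre.

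Of 19315 genes tested, 209 (1.08%) differed between mice at 50 mg/kg/day and vehicle at an adjusted p under 0.05 (limma with Benjamini-Hochberg adjustment over all genes). Of these, 144 (0.746% of the genes tested) were higher and 65 (0.337%) were lower at 50 mg/kg/day, and 111 and 46 of them carry a gene symbol. The 2 largest rises, Gdf15 and Cdkn1a, were targets of p53, and of the gene lists looked at here that of cytoplasmic ribosomal protein genes held the most falls. The changes were small for most genes: 21 rises and 2 falls reached 2-fold, 81 rises and 16 falls reached 1.5-fold, and the median log2 difference was 0.63 among the rises and -0.49 among the falls. In 197 of the 209, the 4 treated mice lay wholly above or wholly below the 5 controls, against 4.5% of all genes tested, and nothing is read from that contrast because the same 9 mice chose the 209. An unadjusted p under 0.05 was reached by 2461 genes (12.7%), where 5% of the genes tested is 966.

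The 4 treated mice moved to a like extent. Over the 144 rises, the median distance from the vehicle mean was 0.67 in mouse 12, 0.58 in mouse 13, 0.52 in mouse 14 and 0.70 in mouse 15. Over the 65 falls it was -0.58, -0.51, -0.39 and -0.48 in the same order. Those medians are a description, since the same mice chose the genes.

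The arrays lay on 6 slides, and 3 of these held both groups (mouse 14 with control 2, mouse 12 with control 1, mouse 13 with control 5). On all 3 of them 207 of the 209 genes differed in the direction of the whole comparison. Nothing is read from that count, because the same mice chose the 209. With slide as a fixed block 407 genes passed (220 higher, 187 lower), and with slide as a random block 619 passed (370 higher, 249 lower). Treated mice sat at positions 3 or 4 of a slide and controls at positions 1 or 2, so position and dose cannot be told apart. The lung channel alone differed more than the reference channel alone for 206 of the 209 genes, a description too, since the ratio of these channels chose them. The split between directions depended on the scaling. With the scanner software's own processed signals 138 genes rose and 377 fell. With each array only centred on its median 9 rose and 0 fell, and the all-gene median was 0.14. Of the 48 called genes that the naming rule picks, 40 lost the call under that centring. Gdf15, Cdkn1a, Ces2e, Ccdc184, Phlda3, Aen, Inka2 and Sesn2 kept it. Fewer genes passed without mouse 12 (107), mouse 13 (129) or mouse 15 (75) at 50 mg/kg/day and without control 2 (98) or control 4 (121). Without control 3, 149 passed, 37 of them lower. In the fit of these 9 arrays alone 51 passed.

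**Figure D1:**
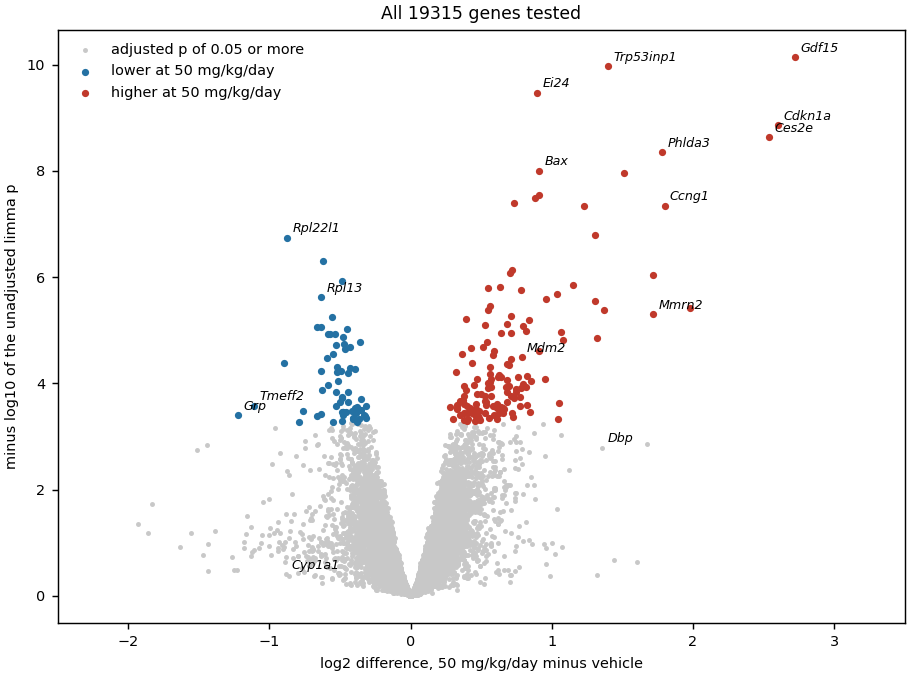
Each point is 1 of the 19315 genes tested, with the log2 difference of 50 mg/kg/day minus vehicle on the x axis and minus log10 of the unadjusted limma p on the y axis. The 144 rises (red) reach 2.72 for Gdf15, whereas the 65 falls (blue) reach -1.22 for Grp, whose probe was well above background in 2 of the 4 treated mice.

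Lung marker genes read far above the cell-line reference RNA in both groups, which gives no share of lung cells in the tissue. Sftpc, the surfactant protein of alveolar type 2 cells, averaged 7.24 ± 0.53 at 50 mg/kg/day and 7.09 ± 0.47 in vehicle lungs (SD, n = 4 and 5), and Scgb1a1, the secretory protein of club cells, averaged 7.21 ± 0.41 and 7.36 ± 0.33. Genes of muscle and fat varied widely from mouse to mouse. The mean of 14 skeletal muscle genes, relative to the vehicle mean, lay between -1.72 and -0.39 at 50 mg/kg/day and between -1.52 and 4.04 in vehicle lungs, with control 5 at the top. The mean of 15 fat cell genes lay between -1.54 and 0.64 at 50 mg/kg/day and between -0.85 and 1.16 in vehicle lungs, and that of 16 cardiac muscle genes between -1.90 and 1.91 and between -0.80 and 1.23. None of the genes on these 3 lists was called by limma. An unadjusted p under 0.05, which 12.7% of all genes tested reached, was found for 2, 0 and 1 of them. The farthest were Tnnc2 at -1.93, Cfd at -1.44 and Sln at -1.25. With the scanner software's processed signals 1 fat cell gene was called lower. In lung tissue, fewer cells of a type and less RNA per cell cannot be told apart.

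Arrest genes of the p53 pathway were among the largest rises. Of 11 tested, 3 rose and none fell, where 0.746% of all genes tested were called higher, and their median log2 difference was 0.26, against -0.0013 over all genes. Cdkn1a (chromosome 17), which encodes the cyclin-dependent kinase inhibitor p21, read 1.44, 1.35, 0.86 and 1.35 in mice 12 to 15 at 50 mg/kg/day, against -1.67, -1.30, -1.38, -1.44 and -0.95 in controls 1 to 5. All treated mice were far above all controls, with mouse 14 the lowest of the 4. The difference was 2.60 ± 0.24 (SE), a 6.07-fold rise (95% interval 4.29 to 8.59, adjusted p = 6.63e-06, limma), and within the 3 slides it was 2.17, 3.11 and 2.30.

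Ccng1, which encodes cyclin G1, a p53 target that feeds back on Mdm2 and p53, read 2.05, 1.77, 1.48 and 1.99 at 50 mg/kg/day, against -0.46, -0.27, 0.21, 0.11 and 0.53 in vehicle lungs. It rose 3.48-fold (1.80 ± 0.21, SE, adjusted p = 6.95e-05, limma), and a second probe of it gave 1.40. Zmat3, an RNA-binding protein induced by p53, rose 1.76-fold (0.82 ± 0.14, SE, adjusted p = 0.00446, limma), with no overlap between the groups. The call of Zmat3 was lost without the 3 arrays that the scanner's quality report marked for evaluation among these 9 (mouse 12, controls 1 and 3), where the difference was 0.80 with an adjusted p of 0.0537 by limma. A mouse at 75 mg/kg/day whose array was also marked stayed in that fit. The remaining 8 arrest genes did not pass, among them Psrc1 at 0.75, Plk2 at 0.48, Btg2 at 0.26 and Gadd45a at 0.22.

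**Figure D2:**
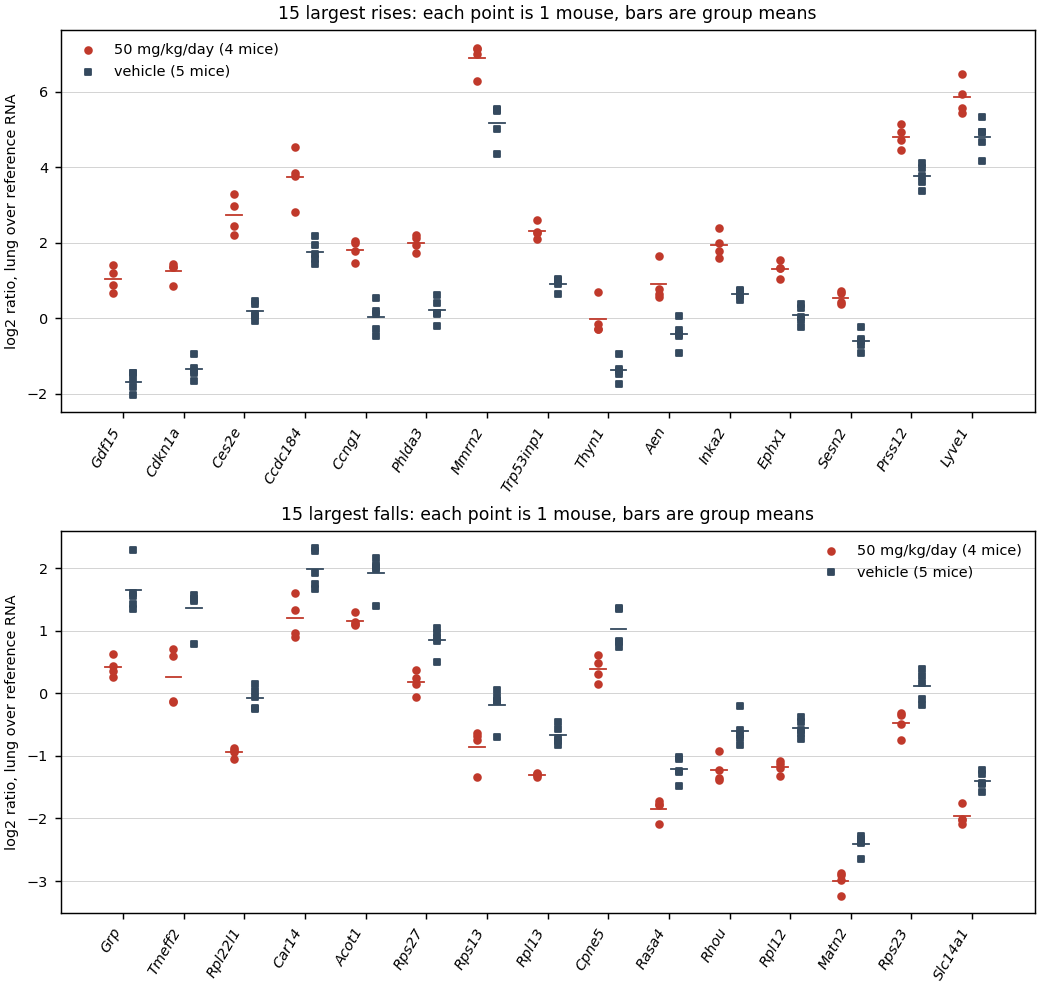
Log2 ratio of lung over reference RNA for the 15 largest rises (top) and the 15 largest falls (bottom) among genes with a symbol; each point is 1 mouse, red circles are 50 mg/kg/day (4 mice), dark squares vehicle (5 mice), and bars are group means. Gdf15 and Cdkn1a lie between 0.68 and 1.44 in every treated mouse and at or below -0.95 in every control, while Grp is -1.22 between group means. The probes of Ces2e and Grp were well above background in 2 of 5 controls and in 2 of 4 treated mice.

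Of 17 p53 targets with roles in cell death and survival, 5 rose and none fell (median 0.28), against the same 0.746% of all genes called higher. Phlda3, a pleckstrin-homology protein that restrains the kinase Akt, read 2.21, 1.94, 1.72 and 2.13 in mice 12 to 15 at 50 mg/kg/day, against 0.41, 0.12, 0.14, -0.21 and 0.62 in vehicle lungs. The groups were separate, and the rise was 3.44-fold (1.78 ± 0.18, SE, adjusted p = 1.43e-05, limma). Trp53inp1, a nuclear protein that promotes p53 activity, read 2.62, 2.27, 2.10 and 2.28 at 50 mg/kg/day, against 1.01, 0.90, 0.98, 1.05 and 0.65 in vehicle lungs. It rose 2.64-fold (1.40 ± 0.11, SE, adjusted p = 1.04e-06, limma).

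Bax, the pore-forming protein of the mitochondrial death pathway, had a narrow spread: 0.01, 0.06, 0.10 and 0.13 at 50 mg/kg/day, against -0.92, -0.75, -0.77, -0.90 and -0.84 in vehicle lungs. It rose 1.88-fold (0.91 ± 0.09, SE, adjusted p = 2.62e-05, limma). Ei24, known as p53-induced gene 8, read 0.80, 0.99, 0.75 and 1.06 at 50 mg/kg/day, against 0.01, 0.07, -0.05, -0.05 and 0.03 in vehicle lungs, a 1.86-fold rise (adjusted p = 2.2e-06, limma). Both rises were smaller than that of Phlda3, and in both genes the mice of a group lay close together. Aen, an exonuclease that acts in apoptosis, rose 2.50-fold by the probe used here (1.32 ± 0.23, SE, adjusted p = 0.00512, limma), whereas its other probe gave 0.055 ± 0.096, so the 2 probes disagree. The BH3-only death genes Pmaip1 (0.75 ± 0.19, SE, adjusted p = 0.0681, limma) and Bbc3 (0.57 ± 0.18, SE, adjusted p = 0.157, limma) did not pass, and the death receptor gene Fas was at 0.13.

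Among 13 genes for p53 itself and its regulators, 2 rose and none fell (median 0.01), where 0.746% of all genes tested were called higher. Trp53 did not pass the test: it read 0.38, 0.10, 0.23 and 0.09 at 50 mg/kg/day, against 0.41, 0.21, 0.12, 0.02 and 0.09 in vehicle lungs, a difference of 0.03 ± 0.09 (SE, adjusted p = 0.94, limma) with a 95% interval of 0.891- to 1.17-fold. Mdm2 read -0.01, 0.39, 0.16 and 0.37 at 50 mg/kg/day, against -0.69, -0.65, -0.58, -0.45 and -0.43 in vehicle lungs. Every treated mouse was above every control, and Mdm2 rose 1.72-fold (0.79 ± 0.15, SE, adjusted p = 0.00932, limma). Its other probe gave 0.35, and its call was lost without mouse 15 (adjusted p = 0.0522, limma) and without the 3 arrays marked for evaluation (adjusted p = 0.063, limma). Rps27l, a ribosomal protein paralog induced by p53, rose 1.64-fold (0.72 ± 0.10, SE, adjusted p = 0.000854, limma).

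Secreted and metabolic p53 targets split into a few large rises and many members near 0. Of 18 tested, 3 rose and none fell, where 0.746% of all genes tested were called higher, and the median of the list was 0.02. Gdf15 (chromosome 8), a stress-induced hormone of the TGF-beta family, had the largest rise of all called genes. It read 1.21, 1.41, 0.68 and 0.89 in mice 12 to 15 at 50 mg/kg/day, against -1.81, -1.64, -1.44, -1.45 and -2.03 in vehicle lungs, so the lowest treated mouse was more than 2 units above the highest control. The rise was 6.60-fold (2.72 ± 0.21, SE, 95% interval 4.87 to 8.94, adjusted p = 1.04e-06, limma), and 2.31, 3.02 and 3.44 within the 3 slides. Sesn2, a sestrin that inhibits mTORC1 under stress, rose 2.22-fold (1.15 ± 0.17, SE, adjusted p = 0.00133, limma). The sestrin gene Sesn1 stood at -0.21 and did not pass, and neither did Fdxr at -0.21 and Tigar at -0.06.

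Stretches of promoter are shown because they hold the p53 half-site in 5 of the called p53 targets. They come from RefSeq on GRCm38.p6, read 5′ to 3′ on the strand of the gene, and capitals mark matches to the half-site consensus, which reads alike on both strands.
Cdkn1a (chr17:29090866-29090977, plus strand): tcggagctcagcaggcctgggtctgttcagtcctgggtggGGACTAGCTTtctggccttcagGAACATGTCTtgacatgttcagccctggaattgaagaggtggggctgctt
Ccng1 (chr11:40755422-40755511, minus strand): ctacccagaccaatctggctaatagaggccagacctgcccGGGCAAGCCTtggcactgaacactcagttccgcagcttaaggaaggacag
Bax (chr7:45467050-45467139, minus strand): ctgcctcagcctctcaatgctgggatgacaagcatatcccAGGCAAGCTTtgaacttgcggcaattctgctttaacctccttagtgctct
Ei24 (chr9:36797335-36797384, minus strand): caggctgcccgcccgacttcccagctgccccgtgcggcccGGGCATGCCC
Aen (chr7:78895897-78895986, plus strand): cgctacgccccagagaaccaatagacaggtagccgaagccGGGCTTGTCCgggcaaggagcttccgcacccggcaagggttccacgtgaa
In windows of 250 bases before to 50 after a start, 8.61% of the 9834 tested genes with a window held at least 1 half-site. The share was 5 of 8 (62.5%) among called p53 targets with a window, 3 of 29 (10.3%) among p53 targets on the same lists that were not called, 18 of 91 (19.8%) among all genes called higher and 2 of 39 (5.13%) among genes called lower. A pair of half-sites with at most 13 bases between them was found in 6 of the 9834, and Cdkn1a was 1 of these. Only exact matches were searched and marked. Near matches are left in small letters, such as the bases right after the downstream half-site of Cdkn1a. The marked pair is therefore not shown to be the one that p53 binds. A match is a run of letters in the sequence, and binding was not measured here. The other called genes of the p53 target lists with a window held none in these 300 bases, which says nothing of sites elsewhere. The list of p53 and its regulators was left out of the 5 of 8 and the 3 of 29. Mdm2 and Rps27l, also called higher, were not counted among these p53 targets, and their windows held 1 and 2 half-sites.

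Among genes that tolerate or repair damaged DNA, 1 was called. Polk encodes DNA polymerase kappa, which can copy past bulky BaP adducts. It read 0.80, 0.51, 0.36 and 0.78 at 50 mg/kg/day, against 0.08, -0.01, -0.08, -0.01 and -0.11 in vehicle lungs, with no overlap. It rose 1.56-fold (0.64 ± 0.11, SE, adjusted p = 0.00459, limma), and was the only gene called among 11 for translesion synthesis (median 0.04). By comparison, 0.746% of all genes tested were called higher. Of 21 nucleotide excision repair genes limma called none. An unadjusted p under 0.05, which 12.7% of all genes tested reached, was found for 1 of the 21. Their median was -0.01, the farthest was Ercc5, an excision nuclease, at 0.24, and the p53-responsive damage sensors Xpc and Ddb2 stood at 0.10 and -0.10.

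Genes switched on by the aryl hydrocarbon receptor were not called 3 days after dosing ended. Of 14 tested none passed in limma, 1 had an unadjusted p under 0.05 (12.7% of all genes tested did), and the median of the 14 was -0.01. Cyp1a1, the receptor's best known target, read 0.97, 0.55, 0.40 and 0.32 at 50 mg/kg/day, against 2.27, 0.99, 2.21, 0.89 and 0.84 in vehicle lungs. Controls 1 and 3 were far above the others, and both were marked for evaluation. The difference was -0.88 ± 1.01 (SE, adjusted p = 0.781, limma), and its 95% interval of 0.126- to 2.34-fold leaves room for a change either way. Cyp1b1 was at 0.15 ± 0.46 (SE). The fit shares its estimate of spread among all dose groups, so both SEs also hold the spread at the other doses. Within the groups compared the SD of Cyp1b1 was only 0.13 at 50 mg/kg/day and 0.12 in vehicle lungs. That of Cyp1a1 was 0.29 and 0.73. The quinone reductase gene Nqo1 was at 0.07 and the receptor gene Ahr itself at -0.33 ± 0.12 (SE, adjusted p = 0.231, limma). The promoter letters GCGTG, searched on both strands as the core bound by the receptor, were found in 7 of 9 of these genes with a window and in 52.9% of all genes tested with one.

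Hydrolases that act on drugs and foreign chemicals held 2 of the largest rises. Ephx1, microsomal epoxide hydrolase, takes part in forming BaP diol epoxide. It read 1.04, 1.34, 1.34 and 1.54 at 50 mg/kg/day, against -0.23, -0.05, 0.05, 0.27 and 0.39 in vehicle lungs. The groups did not overlap, the rise was 2.34-fold (1.23 ± 0.14, SE, adjusted p = 6.95e-05, limma), and a second probe gave 1.22. Ces2e, a carboxylesterase, read 2.45, 3.30, 2.21 and 2.97 at 50 mg/kg/day, against -0.06, 0.11, 0.05, 0.46 and 0.39 in vehicle lungs, a 5.82-fold rise as fitted (2.54 ± 0.24, SE, adjusted p = 9.06e-06, limma). This probe was well above background in all 4 treated mice but in 2 of the 5 controls, so the size of the fold rests in part on values not well above background, and a second probe of Ces2e gave -0.0004 ± 0.083, so the 2 probes disagree. Carboxylesterase 2 genes are close copies, and cross-hybridization was not tested. The other 10 tested genes of this list did not pass (median of the list 0.16). So 2 of 12 were called higher, against 0.746% of all genes tested, and 1 of these 2 is Ces2e with its disagreeing probes.

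In limma none of 24 cytochrome P450 genes of families 2 to 4 was called (median 0.17, farthest Cyp2a4 at 0.96), and none of 21 glutathione S-transferase genes (median -0.02, farthest Gstp1 at -0.30). Likewise none of 20 antioxidant genes regulated by NRF2 and metallothioneins passed (median -0.04). An unadjusted p under 0.05, which 12.7% of all genes tested reached, was found for 3, 1 and 4 genes of these lists in the order given. The metallothionein Mt2 was the farthest of them at -0.98 ± 0.29 (SE, adjusted p = 0.121, limma). Mt2 was called lower with slide as a fixed block (-1.07, adjusted p = 0.0346), with slide as a random block (-1.02, 0.0339), with scan day as a block (-1.07, 0.0254) and without control 5 (-0.60, 0.0437), all by limma. With slide as a random block, or without control 5, 2 cytochrome P450 genes were called higher. In the list for ATF4, the transcription factor of the integrated stress response, 1 of 17 was called lower, against 0.337% of all genes tested. This was Trib3, a pseudokinase, which fell by 0.53 (adjusted p = 0.0251, limma). Its call was lost without any 1 of mice 12, 14 and 15 or controls 2 to 5 (adjusted p 0.0508 to 0.0861, limma). None of 28 proliferation genes was called (median 0.06, farthest the S and G2 phase cyclin Ccna2 at 0.45). For 4 of the 28 the unadjusted p was under 0.05, as it was for 12.7% of all genes tested. With the scanner software's processed signals 3 were called higher, Ccna2 among them (0.85, adjusted p = 0.0131, limma).

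**Figure D3:**
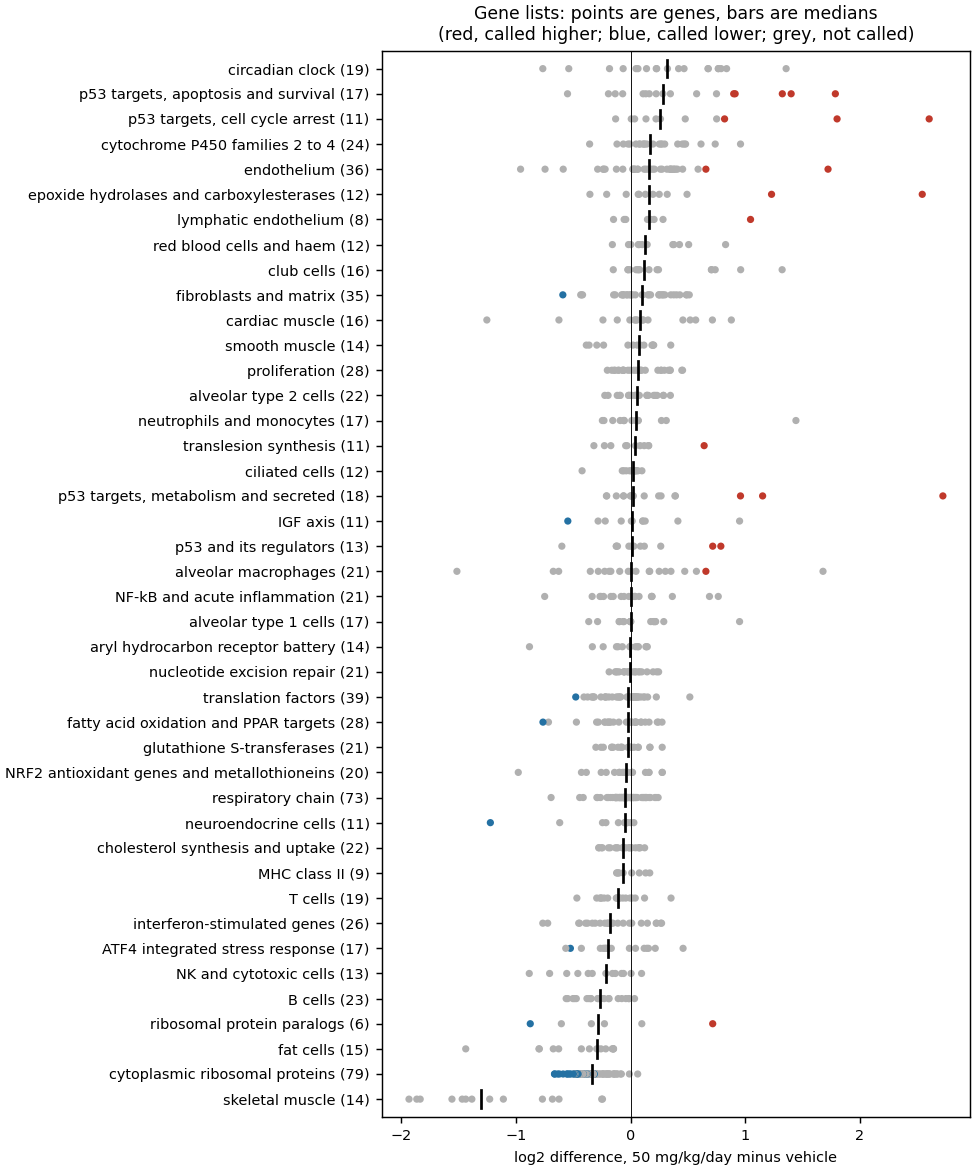
Each row is 1 of 42 gene lists with the number of genes tested in brackets; points are genes, placed by the log2 difference of 50 mg/kg/day minus vehicle, black bars are list medians, and red and blue mark genes called higher and lower. The 4 p53 lists hold 3, 5, 2 and 3 called rises and the ribosomal protein list 22 called falls, with a median of -0.34, and every other list with a call holds 1 or 2; the skeletal muscle list lies lowest at -1.31 with no gene called.

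Cytoplasmic ribosomal protein genes, which encode the protein parts of the ribosome, held more falls than any other of the 42 lists. Of 79 tested, 22 fell and none rose, against 0.337% of all genes tested called lower. In all, 78 of the 79 had a negative difference, and their median was -0.34, against -0.0013 over all genes. Averaged over the 79 genes and set against the vehicle mean, mice 12 to 15 stood at -0.32, -0.43, -0.27 and -0.36, and controls 1 to 5 at 0.00, 0.13, -0.09, -0.09 and 0.04. The medians within the 3 slides were -0.40, -0.35 and -0.46.

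Rpl13, of the large subunit, showed the tightest group of treated mice among the named falls, at -1.34, -1.30, -1.28 and -1.29, against -0.56, -0.45, -0.77, -0.83 and -0.72 in vehicle lungs. It fell to 0.643-fold (-0.64 ± 0.10, SE, adjusted p = 0.00177, limma). Rpl12, also of the large subunit, fell to 0.650-fold (-0.62 ± 0.08, SE, adjusted p = 0.000603, limma), and Rps27 of the small subunit to 0.631-fold (-0.66 ± 0.11, SE, adjusted p = 0.00397, limma). Rps26 fell by 0.56 (adjusted p = 0.0031, limma). Rps23 and Rps13 fell by 0.59 and 0.66 (adjusted p = 0.0211 and 0.0424, limma). The call of Rps13 was lost without any 1 of mice 12, 13 and 15 or controls 2 to 5 (adjusted p 0.0684 to 0.142, limma), and that of Rps23 without mouse 12, mouse 13, control 2 or control 3 (0.0508 to 0.0772).

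The reference channel moved the other way. The median over the 79 genes was -0.24 in the lung channel alone and 0.12 in the reference channel alone, although the reference RNA was the same on every array. Their size also followed the scaling: with each array centred on its median in place of loess 0 of 79 were called and the list's median was 0.03, while that of all genes was 0.14 and 65 of the 79 lay below it. In the authors' deposited table, tested in the same way, 4 of 79 were lower (median -0.21). With slide as a fixed block 46 were lower, with slide as a random block 44, with scan day as a block 38 and with the scanner software's processed signals 36 (median -0.32, against -0.09 over all genes). In the fit of the 9 arrays alone 4 were lower, and without the 3 arrays marked for evaluation 8 were. Without 1 mouse, between 11 and 21 were lower, with 11 when mouse 13, mouse 15 or control 2 was left out, 13 without mouse 12, and 14 without control 3 or control 5. Ribosomal protein genes have many near-identical pseudogenes, and what the probes share with these was not tested.

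**Figure D4:**
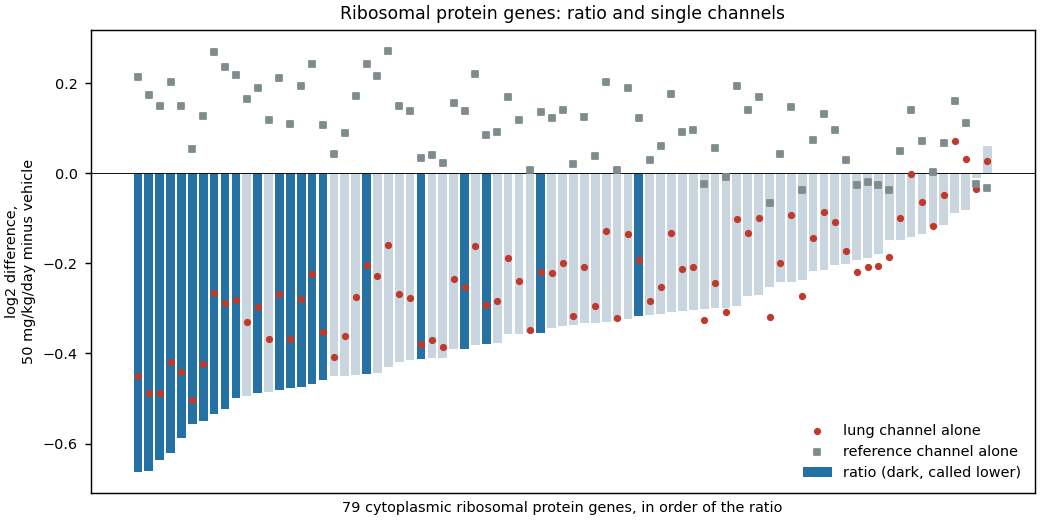
Bars give the log2 difference of 50 mg/kg/day minus vehicle for each of 79 cytoplasmic ribosomal protein genes, ordered by size, with the 22 called lower in dark blue; red points give the lung channel alone and grey squares the reference channel alone. Most lung channel points lie below 0 (median -0.24) and most reference channel points above it (median 0.12).

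The paralogs of ribosomal proteins went both ways. Rpl22l1, a paralog of Rpl22, read -0.94, -1.05, -0.91 and -0.87 in mice 12 to 15 at 50 mg/kg/day, against -0.23, 0.04, 0.15, -0.06 and -0.26 in vehicle lungs. It fell to 0.545-fold (-0.88 ± 0.11, SE, adjusted p = 0.000233, limma), the smallest adjusted p among the falls named here, while Rps27l rose as given above. A run of at least 7 pyrimidines within 10 bases of the start, a feature of genes whose translation is regulated by mTOR, was present in 9 of 19 (47.4%) called ribosomal protein genes with a promoter window, in 17 of 39 (43.6%) uncalled ones and in 14.9% of all genes with one. Of 39 translation factor genes 1 was called lower, against 0.337% of all genes tested. This was Eif3e, a subunit of initiation factor 3, which fell by 0.48 (adjusted p = 0.0419, limma). Its other probe gave -0.25 ± 0.12. The call of Eif3e was lost without any 1 of mice 12, 13 and 15 or controls 2 to 5 (adjusted p 0.0581 to 0.141, limma). Of 73 respiratory chain genes none was called (median -0.05, farthest Cox7c at -0.69), and 5 had an unadjusted p under 0.05, as had 12.7% of all genes tested.

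Other large rises belonged to none of the p53 lists. Ccdc184, which encodes a coiled-coil protein, read 4.55, 3.86, 2.83 and 3.78 at 50 mg/kg/day, against 1.95, 1.44, 2.19, 1.57 and 1.71 in vehicle lungs, and rose 3.95-fold (1.98 ± 0.31, SE, adjusted p = 0.00246, limma). Inka2, which encodes an inhibitor of the kinase Pak4, read 2.40, 1.80, 1.59 and 1.99 at 50 mg/kg/day, against 0.66, 0.74, 0.48, 0.73 and 0.59 in vehicle lungs, a 2.47-fold rise (adjusted p = 0.000225, limma). Neither gene overlapped between groups. Thyn1, a nuclear protein named for its expression in thymocytes, rose 2.59-fold (1.37 ± 0.22, SE, adjusted p = 0.00255, limma). Prss12, the serine protease neurotrypsin, rose 2.07-fold (1.05 ± 0.23, SE, adjusted p = 0.0348, limma), a call that was lost without any 1 of mice 12, 13 and 15 or controls 1, 2 and 5 (adjusted p 0.0506 to 0.121, limma).

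Among vessel genes Mmrn2 had the largest rise. Of 36 endothelial genes 2 rose and none fell (median 0.16), where 0.746% of all genes tested were called higher. The groups did not overlap for 5 that were higher and 2 that were lower, against 2.54% and 1.96% of all genes tested. Mmrn2, an extracellular matrix protein made by endothelium, read 7.00, 7.17, 6.30 and 7.13 at 50 mg/kg/day, against 5.02, 4.34, 5.54, 5.52 and 5.50 in vehicle lungs, and rose 3.29-fold (1.72 ± 0.27, SE, adjusted p = 0.00291, limma). Car4, a membrane carbonic anhydrase of lung capillaries that is also on the alveolar macrophage list, rose 1.58-fold (0.66 ± 0.15, SE, adjusted p = 0.0372, limma). Its call was lost without any 1 of mice 12, 13 and 15 or controls 1 to 4 (adjusted p 0.0534 to 0.164, limma). The endothelin receptor gene Ednrb was at -0.96 and Gpihbp1, which anchors lipoprotein lipase to capillaries, at -0.75, and neither passed (adjusted p = 0.0581 and 0.078, limma), while the pan-endothelial gene Cldn5 was at 0.02. The endothelial list's median turned to -0.03 with the scanner software's processed signals. Lyve1, a hyaluronan receptor of lymphatic endothelium and some macrophages, rose 2.06-fold (1.04 ± 0.25, SE, adjusted p = 0.0462, limma). It was the only gene called of 8 on the lymphatic list, and its call was lost when any 1 mouse other than control 5 was left out (adjusted p 0.0589 to 0.158, limma).

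Of the 65 falls, 43 were not on the cytoplasmic ribosomal protein list, and 24 of these carry a symbol. Grp, the gastrin-releasing peptide of pulmonary neuroendocrine cells, read 0.35, 0.63, 0.43 and 0.27 at 50 mg/kg/day, against 1.43, 1.35, 1.55, 1.60 and 2.29 in vehicle lungs. The groups did not overlap, and Grp fell to 0.428-fold as fitted (-1.22 ± 0.29, SE, adjusted p = 0.0419, limma). Its probe was well above background in all 5 controls but in 2 of 4 treated mice, so the size of the fall rests in part on values not well above background, and the call was lost whichever of the 9 mice was left out (adjusted p 0.0516 to 0.148, limma). The other 10 tested neuroendocrine genes did not pass (median of the list -0.05), and 0.337% of all genes tested were called lower. Tmeff2, a transmembrane protein with follistatin and EGF-like domains, fell to 0.464-fold (-1.11 ± 0.25, SE, adjusted p = 0.036, limma), and its call was lost without any 1 of mice 12 and 15 or controls 2 to 5 (0.0611 to 0.151). Its other probe gave -0.69 ± 0.24.

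Rasa4, a GTPase-activating protein for Ras, fell to 0.645-fold (-0.63 ± 0.10, SE, adjusted p = 0.00397, limma), with treated mice at -1.77, -1.79, -1.72 and -2.09 and vehicle mice at -1.26, -1.24, -1.48, -1.06 and -1.02. Matn2, a matrilin of the extracellular matrix, fell to 0.664-fold (adjusted p = 0.00941, limma) and was the only called gene of 35 fibroblast and matrix genes (median 0.10). Slc14a1, the urea transporter, fell to 0.672-fold (adjusted p = 0.00459, limma), and was well above background in 3 of 4 treated mice. Both genes separated the groups in every mouse. The carbonic anhydrase Car14 fell by 0.79 (adjusted p = 0.0493, limma), the acyl-CoA thioesterase Acot1 by 0.76 (0.0393), the copine Cpne5 by 0.63 (0.0402), the small GTPase Rhou by 0.63 (0.0238) and the IGF-binding protein Igfbp6 by 0.55 (0.049). Acot1 was the only called gene of 28 for fatty acid oxidation (median -0.02) and Igfbp6 of 11 for the IGF axis (median 0.01). Beside these single calls and that of Matn2, 0.337% of all genes tested were called lower. The calls of Car14, Acot1, Cpne5, Rhou and Igfbp6 were lost on leaving out 7, 8, 7, 4 and 8 of the 9 mice in turn, mouse 12 and mouse 15 among them for all 5 (adjusted p 0.0526 to 0.149, limma). A second probe of Cpne5 gave -0.12.

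Circadian clock genes differed in a pattern that did not pass the adjusted test. None of 19 was called by limma, and the median was 0.32. For 12 of the 19 the unadjusted p was under 0.05, which 12.7% of all genes tested reached. The groups did not overlap for 8 that were higher and 2 that were lower, where 2.54% and 1.96% of all genes tested separate in each direction. Dbp, an output transcription factor of the clock, read 1.86, 1.52, 1.82 and 1.56 at 50 mg/kg/day, against -0.83, 0.27, 0.76, 0.81 and 0.68 in vehicle lungs (1.36 ± 0.37, SE, adjusted p = 0.0879, limma). Per2, a repressor of the clock, was at 0.84 (adjusted p = 0.0961, limma), Nr1d1, the nuclear receptor REV-ERB alpha, at 0.79 and Arntl, the activator BMAL1, at -0.77. With slide as a fixed block 3 clock genes were called higher and 1 lower, with slide as a random block 5 and 2, and with scan day as a block 4 and 1. The scanner software's processed signals gave 1 called higher, and leaving out control 5 gave 1 called lower. Against the same controls Dbp stood at 1.06 in mice at 25 mg/kg/day, and in those at 75 mg/kg/day it stood at 0.86. The labels do not give the hour at which each lung was taken, and its part was not tested.

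**Figure D5:**
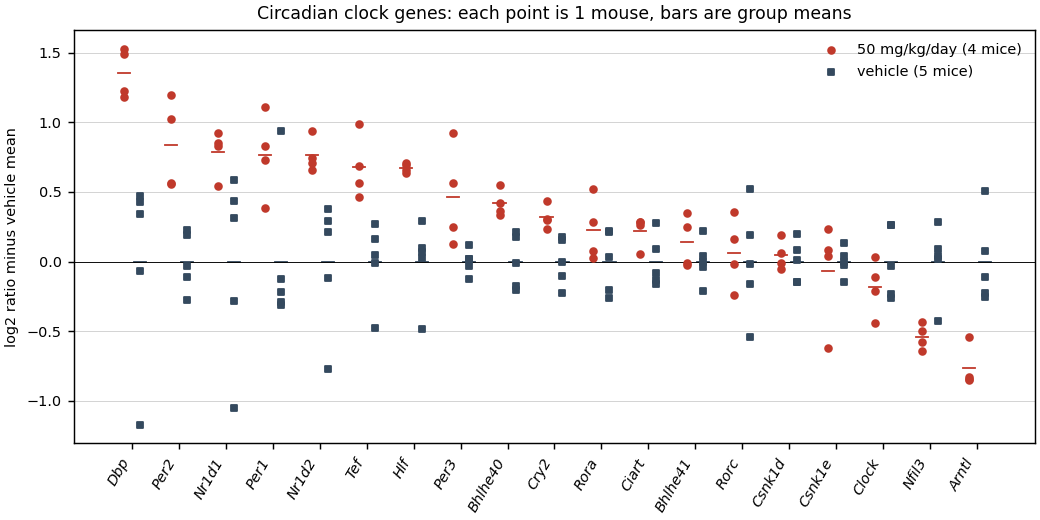
Log2 ratio minus the vehicle mean for 19 circadian clock genes, ordered by the size of the difference; red circles are the 4 mice at 50 mg/kg/day, dark squares the 5 vehicle mice, and bars are group means. Dbp is highest at 1.36 and Arntl lowest at -0.77, both without overlap, and none of the 19 passes the adjusted test.

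Markers of B cells, T cells and NK and cytotoxic cells did not pass. For B cells 22 of 23 genes were below 0 (median -0.27, farthest Ms4a1, the CD20 gene, at -0.56), for T cells 15 of 19 (median -0.11, farthest Cd5 at -0.47) and for NK and cytotoxic cells 11 of 13 (median -0.22, farthest Gzma at -0.88), with 0 called by limma in each list and 10, 3 and 4 genes at an unadjusted p under 0.05, which 12.7% of all genes tested reached. With the scanner software's processed signals 2 B cell genes and 1 NK cell gene were called lower, and without mouse 13 1 B cell gene was. Over all genes, 9596 of the 19315 tested were above 0. Genes of a list come from the same mice and are not separate observations. The mean of the B cell genes lay between -0.51 and -0.10 at 50 mg/kg/day and between -0.24 and 0.28 in vehicle lungs, so the groups overlapped. So did those of T cells (-0.27 to 0.04 and -0.08 to 0.10) and of NK and cytotoxic cells (-0.48 to 0.08 and -0.40 to 0.38). Among 21 alveolar macrophage genes Car4 alone was called (median 0.01), where 0.746% of all genes tested were called higher. The scavenger receptor gene Marco read 5.59, 5.50, 5.00 and 5.10 at 50 mg/kg/day, against 2.58, 4.22, 3.91, 4.59 and 2.82 in vehicle lungs (1.68 ± 0.45, SE, adjusted p = 0.0816, limma). Chil3, a chitinase-like protein of the same cells, was at -1.51 ± 0.41 (adjusted p = 0.0908, limma), and its groups overlapped.

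No gene was called among 17 neutrophil and monocyte genes (median 0.05, farthest Ltf, lactoferrin, at 1.44), 21 of acute inflammation (median 0.0032, farthest Lcn2, lipocalin 2, at 0.76) and 26 interferon-stimulated genes (median -0.18, farthest Oas2 at -0.77). The same was true of 9 MHC class II genes (median -0.07, farthest Ciita, their master activator, at 0.17). In these 4 lists 1, 2, 5 and 0 genes had an unadjusted p under 0.05, where 12.7% of all genes tested had one. With slide as a random block 1 interferon-stimulated gene was called lower, and without control 5 1 of these and 1 of the acute inflammation genes were. Epithelial lists held no called gene in the fit without a block either: the farthest members were Igfbp2 at 0.95 for type 1 cells, Bpifa1 at 1.32 for club cells, Mlf1 at -0.42 for ciliated cells and Dram1 at 0.35 for type 2 cells, with 2, 0, 0 and 1 genes at an unadjusted p under 0.05. Igfbp2 was called higher with slide as a fixed block (0.83, adjusted p = 0.0405), with slide as a random block (0.88, 0.0297), with scan day as a block (0.86, 0.0304) and with the scanner software's processed signals (0.83, 0.0353), all by limma. Values of smooth muscle (Cnn1, -0.39), cholesterol (Stard4, -0.28) and red cell genes (Slc4a1, 0.83) also did not pass, where 1, 2 and 4 genes had an unadjusted p under 0.05. Of 42 lists, 25 had no called gene.

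The neighbouring doses were compared directly in the same fit. Against 25 mg/kg/day, 2 genes (0.0104%) were higher at 50 mg/kg/day: Gdf15 by 1.44 ± 0.21 (SE, adjusted p = 0.0302, limma) and Ces2e by 1.54 (adjusted p = 0.0381, limma), with 742 genes at an unadjusted p under 0.05. Without mouse 12, 13 or 15 or without control 1 or 2, 0 passed, and without mouse 14, 4 did. The probe used for Ces2e was well above background in 2 of 5 controls. A second probe of Ces2e gave -0.0004 ± 0.083 at 50 mg/kg/day against vehicle. Between 75 and 50 mg/kg/day 0 genes (0%) passed in limma, with 946 at an unadjusted p under 0.05. Against the same controls, 802 genes (4.15%) passed at 75 mg/kg/day.

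Values of the called genes lie side by side with those of the other doses, which share the controls. The genes were chosen at 50 mg/kg/day, so the values describe them and are no test of agreement between doses. The median over the 144 rises was 0.37 at 25, 0.63 at 50 and 0.69 at 75 mg/kg/day, and over the 65 falls it was -0.22, -0.49 and -0.49, where the median over all genes was 0.0077, -0.0013 and -0.0077. Cdkn1a stood at 1.36, 2.60 and 3.28 and Bax at 0.57, 0.91 and 1.29 over the same 3 doses. Of the 209 genes, 25 were called at 50 and not at 75 mg/kg/day, 17 of them with a symbol, 10 higher and 7 lower. The largest of these were Ddah1, which breaks down the nitric oxide synthase inhibitor ADMA (0.70 at 50 and 0.42 at 75 mg/kg/day), Rps13, Car4, the calponin Cnn3 (0.64 and 0.31), the integrin Itga8 (0.61 and 0.34, with its 2 other probes at 0.37 ± 0.21 and 0.19 ± 0.10 at 50 mg/kg/day), the cold-inducible RNA-binding protein Cirbp (-0.53 and -0.33), the receptor phosphatase Ptprd (0.53 and 0.32) and Ly6g6c (-0.49 and -0.31). The difference between 75 and 50 mg/kg/day passed for none of them, so they are not shown to differ between the doses. The calls of Ddah1, Cnn3, Itga8, Cirbp, Ptprd and Ly6g6c were lost on leaving out 4, 2, 5, 7, 7 and 1 of the 9 mice, mouse 15 among them for all but Ddah1 (adjusted p 0.053 to 0.139, limma).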

How the data were processed

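Lung RNA of 19 mice was measured on 2-colour Agilent arrays of 45018 spots (43379 not controls), and 4 arrays at 50 mg/kg/day were compared with 5 vehicle arrays. Intensity values were deposited as the scanner wrote them, per the file headers with Feature Extraction 10.7.3.1, and the median spot and local background brightness were used. The authors also deposited a log2 ratio per spot, which served as an alternative. It matched loess ratios without background subtraction at r of 0.995 to 0.998 and a slope of 0.991 to 0.995, its column medians were -0.0526 to -0.0333, and its centring is unknown.

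Normexp background correction (offset 50, which compresses folds of dim genes) and loess within each array, fitted without control spots, were run in limma 3.58.1 under R 4.3.3. Outlier spots (0.29%) were dropped, and 0 were saturated. Of 41174 probes, 23374 (56.77%) were named by accession without version from RefSeq genes of GRCm38.p6, and the rest are listed under their design accession. A probe had to be well above background for lung RNA on 4 or more arrays, and each gene is its brightest probe for lung RNA (19315 genes, 12323 with a symbol). All 19 arrays were fitted with a mean per dose group (lmFit, eBayes), so that the groups share 1 estimate of the spread. In the 9 mice 45.59% to 60.02% of spots stood well above background for lung RNA, which with the number of arrays limits the precision.

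Named genes follow a rule: the 15 largest rises and falls with a symbol, up to 6 called members per list (or the farthest member of a list with none), Trp53, Mdm2, Cyp1a1, Cyp1b1, Nqo1 and Ahr, up to 8 called at 50 and not at 75 mg/kg/day, and genes called between doses. Other genes are named because of their values. 1 gene that the rule names is not reported here. The comparison, the 42 gene lists and the tests were chosen with earlier results of these data known, so lists are described and not tested. The fit was tested on simulated data. Alternatives covered background, scaling, filters, slide, scan day and each mouse left out.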

Additional observations from a re-analysis of the deposited data

Results flagged for a closer look

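Single mice stood apart from the rest of their group in 15 of 154 groups checked over 77 named genes, by the gap to the nearest other mouse as a share of the group's range, a test by which chance marks about 1 in 20 groups.

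At 50 mg/kg/day, mouse 14 was low for Cdkn1a at 0.86, against 1.35 to 1.44 in the other 3, and still above every control. Mouse 12, one of the arrays marked for evaluation, stood apart for 4 genes. It was high for Thyn1 at 0.70, against -0.29 to -0.14, and for Cox7c at -1.70, against -2.94 to -2.79. It was low for Rps13 at -1.33, against -0.75 to -0.64, and for the atrial muscle gene Sln at 0.011, against 4.72 to 5.67. Mouse 15 was low for Gstp1 at -0.34, against -0.23 to -0.21, and mouse 14 for Ciita at 2.69, against 3.15 to 3.19.

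Among the controls, mouse 5, which also had the highest skeletal muscle signal, was high for Grp at 2.29, against 1.35 to 1.60 in the other 4, for Mt2 at -0.40, against -2.56 to -2.05, and for Ly6g6c at 0.33, against -0.04 to 0.06. Mouse 4 was high for the neutrophil granule gene Ltf at 5.96, against 0.64 to 1.54, and for Lcn2 at 2.57, against 0.51 to 1.04. Mouse 1 was low for Tmeff2 at 0.79, against 1.47 to 1.57, and for Rps13 at -0.70, against -0.12 to 0.05. Mouse 3 was low for Acot1 at 1.39, against 1.99 to 2.16.

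The effects at 50 and at 25 mg/kg/day differed by the direct test for Ces2e (by 1.54, adjusted p = 0.0381, limma) and Gdf15 (by 1.44, adjusted p = 0.0302, limma). For Ces2e this is by the probe used, and its second probe gave -0.0004 ± 0.083 at 50 mg/kg/day against vehicle.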

How the results depend on the processing

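The genes called at 50 mg/kg/day against vehicle kept their sign in 98.6% to 100% of cases under every setting, while their number moved. It was 210 without background subtraction, 166 in the authors' table, 178 without a dim-probe filter, 201 with probes above background on all 9 arrays and 211 with probe means. In place of 209 (144 higher, 65 lower), 515 (138, 377) passed with the scanner's processed signals, 9 (9, 0) with median centring, 51 (44, 7) with only the 9 arrays, 407 (220, 187) with slide as a fixed and 619 (370, 249) as a random block, 337 (186, 151) with scan day as a block and 76 (53, 23) without the 3 arrays marked for evaluation. With 1 mouse left out, 75 to 202 passed (53 to 142 higher, 22 to 74 lower). Against 25 mg/kg/day, 0 passed with processed signals, median centring, no dim-probe filter, the authors' table or without marked arrays, 1 without background subtraction, with the stricter filter, fixed slide or scan day, 3 with random slide, and 0 to 4 with 1 mouse left out. Between 75 and 50 mg/kg/day 1 passed with processed signals.

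Signs turned for genes that were not called: Trp53 (-0.17 with processed signals, -0.0045 with fixed slide, -0.032 without mouse 12, -0.0093 without control 4; leaving out 1 mouse gave -0.032 to 0.088), Nqo1 (-0.21 with processed signals, -0.056, -0.0004 and -0.0099 with fixed slide, random slide and scan day, -0.11 without marked arrays), Ciita (-0.076 with processed signals), Gstp1 (0.045 with median centring) and Sln (0.017 without mouse 12; -1.87 to 0.017 leaving out 1 mouse). Itga8 was called and turned to -0.088 with processed signals. The cause was not tested. Of 48 named calls, 40 were lost with median centring, 24 with only the 9 arrays, 19 without marked arrays, 11 in the authors' table, 9 each with processed signals and no dim-probe filter, and 7 to 19 with 1 mouse left out.

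No paired analysis was possible because the groups share no mouse number, other than by slide, which was fitted as a block above. Mean spot brightness was not run, as that column is not among those used here. Signal over background limits dim genes such as Grp and Ces2e.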

Other observations

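Some called genes fall into families that were looked at only after their values were seen, so their counts describe these mice and support nothing further. Of all genes tested 0.746% were called higher. Of 5 genes for the TAM receptors, which mediate clearance of dying cells, and their ligands, 3 rose at 50 mg/kg/day. The ligand gene Pros1 read 2.71, 2.76, 2.63 and 2.92 at 50 mg/kg/day, against 2.04, 1.91, 2.14, 2.10 and 2.08 in vehicle lungs (0.70 ± 0.10, SE, adjusted p = 0.000911, limma). Gas6, the other ligand, was higher by 0.61 and the receptor Mertk by 0.65 (adjusted p = 0.0462 and 0.0402, limma), while the receptors Axl and Tyro3 were at -0.23 and -0.07 and did not pass. The groups of Mertk overlapped. Of 8 G1 cyclin, kinase and pocket protein genes, Ccnd1 (0.78), Ccnd3 (0.59) and Rbl2 (0.46) rose and none fell. Rbl2 had an adjusted p of 0.0475 (limma) and was not called at 75 mg/kg/day. Ccnd1 read 1.33, 1.41, 1.13 and 1.52 at 50 mg/kg/day, against 0.72, 0.56, 0.45, 0.75 and 0.36 in vehicle lungs (adjusted p = 0.00144, limma).

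Of 28 tetraspanin genes, which encode membrane scaffold proteins, 5 rose (Tspan4, Tspan7, Tspan13, Tspan15 and Cd151, by 0.41 to 0.72) and none fell. Of all genes tested, 0.746% were called higher. The adjusted p of the 5 was 0.0402 to 0.0489 (limma), and the groups of Tspan13 overlapped. Leaving out 1 mouse was not looked at for single genes of these families. Other rises outside the lists, picked by eye, were those of Adgrl4 (0.85), Myct1 (0.78) and Notch4 (0.76). The receptor genes for other signals among the rises included Epha2 at 0.71, and the ligand genes included Kitl at 0.71 and Dhh at 0.82. The death ligand Tnfsf10 (TRAIL) read 2.77, 2.29, 1.97 and 2.54 at 50 mg/kg/day, against 1.52, 1.21, 1.69, 1.97 and 1.71 in vehicle lungs (0.77 ± 0.17, SE, adjusted p = 0.0291, limma). The survival gene Bcl2 was higher too, by 0.35 (adjusted p = 0.0333, limma).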
